A study of Homo sapiens with 8 samples.

Results

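Open chromatin after ATRA plus Corin was compared with that after the DMSO vehicle in the monocytic leukaemia line U-937. The assay was ATAC-seq, which reads out where a transposase can insert adapters into accessible DNA. The 2 groups, with 2 samples each of 8 in the series, were cells treated for 24 h with 0.1 µM ATRA together with 0.1 µM Corin, called the combination, and cells given DMSO for the same time. The other groups, used here only as values beside these, received ATRA alone or Corin alone at 0.1 µM for 24 h. Each group had 1 list of peaks in which the authors had combined the 2 samples. Replicate spread can thus be given for none of the values, and no difference was tested against it. Peaks that overlapped within a list were joined into 1 region, and regions of the 2 lists that overlapped by at least 1 bp were joined. The joined set held 130758 regions, of 161291 over all 4 lists. Of these, 15829 were found only in the combination list and are called gained, which is 16.7% of its 94917 regions. A further 36725 were found only in the DMSO list and are called lost, 31.5% of its 116563 regions. The remaining 78204 were shared. Positions are on the human build hg38.

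ATRA, all-trans retinoic acid, binds the retinoic acid receptors (RAR), which pair with retinoid X receptors (RXR) on direct repeats of a 6-base half-site. Without ligand the pair holds co-repressors at the site, and with ligand it exchanges them for co-activators. Corin is a small molecule that blocks both enzymes of the CoREST co-repressor, the histone demethylase LSD1 (KDM1A) and the histone deacetylases HDAC1 and HDAC2. GFI1, a zinc finger repressor of blood cells, brings CoREST to its sites. ATRA drives differentiation in some myeloid leukaemias, and in monocytic cells PU.1, C/EBP and AP-1 factors hold much of the open chromatin.

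The measure used throughout is the authors' fold of a peak over its local background, taken as the highest of the region in each list. The difference of a shared region is the log2 ratio of the combination over DMSO minus 0.028, the median over all shared regions, and is called its shift. A shared region with a shift of at least 2-fold upwards is called strengthened and one at least 2-fold downwards weakened. The read depth behind a list is unknown. The most frequent background under the peaks, recovered from the authors' scores in units of read pileup, was 13.9 for the combination, 12.8 for DMSO, 9.12 for ATRA and 13.1 for Corin. Levels in the ATRA list therefore stand on a lower background, and its median fold, 4.8 over all peaks, was above the 3.68 of the combination and the 3.47 of DMSO. As a check on the cell type, 14 of 17 myeloid marker genes had a shared region at a promoter. The same held for 6 of 11 T and NK cell markers, 4 of 7 B cell markers, 2 of 9 erythroid and megakaryocytic markers and 1 of 5 epithelial markers. Over all coding genes it held for 11001 of 20007. Any region within 10 kb of the gene body separated the lists less, with 17 of 17 myeloid, 10 of 11 T and NK cell and 7 of 7 B cell markers. For erythroid and megakaryocytic markers this was 6 of 9 and for epithelial ones 3 of 5, beside 17894 of 20007 coding genes. CD3D had no region near it, and MPO, the granule peroxidase of early myeloid cells, had no shared region.

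Sequences with a retinoid direct repeat are shown first, since they are the sites that RAR and RXR are known to bind. A further reason is that none of the shared regions with one in the windows used here was weakened. The half-site AGGTCA was searched together with the variants GGGTCA and also AGTTCA and lastly GGTTCA, in pairs in the same direction with a spacer of 5 or 2 bases. Both strands of the 200 bp centred on the summit of the strongest peak were searched. This peak was from the combination list for gained regions and shared ones not shifted downwards, and from the DMSO list for the others. The windows thus follow the values that define the sets. Each line gives the plus strand of hg38, from 5′ to 3′, with 25 bases on each side and the repeat, spacer included, in capitals. A repeat with half-sites that read backwards lies on the minus strand. The regions shown were chosen after their values were seen, among introns and intergenic sequence. The first 6 have a spacer of 5.
PRLR, chr5:35281778-35281844: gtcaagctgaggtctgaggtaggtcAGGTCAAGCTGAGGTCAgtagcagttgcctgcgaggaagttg
TGFA, chr2:70529842-70529908: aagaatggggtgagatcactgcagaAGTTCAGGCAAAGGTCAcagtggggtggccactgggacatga
AGO1, chr1:35887190-35887256: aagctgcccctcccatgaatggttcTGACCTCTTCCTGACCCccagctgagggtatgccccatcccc
PRDX6, chr1:173422522-173422588: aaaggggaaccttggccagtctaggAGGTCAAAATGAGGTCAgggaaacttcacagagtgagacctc
CYP26A1, chr10:93150415-93150481: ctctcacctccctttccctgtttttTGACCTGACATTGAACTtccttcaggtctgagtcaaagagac
CYP26B1, chr2:71948890-71948956: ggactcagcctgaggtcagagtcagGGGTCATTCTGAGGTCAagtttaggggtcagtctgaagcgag

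The next 3 have a spacer of 2.
GFI1, chr1:92447238-92447301: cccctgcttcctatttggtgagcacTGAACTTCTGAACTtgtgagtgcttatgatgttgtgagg
ALDH1A2, chr15:58282456-58282519: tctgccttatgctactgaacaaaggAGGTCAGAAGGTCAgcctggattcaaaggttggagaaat
MRTFB, chr16:14345709-14345772: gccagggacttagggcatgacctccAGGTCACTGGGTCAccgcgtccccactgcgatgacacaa

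Shared regions with a retinoid repeat were strengthened in 32 of 146 cases (21.9%, 95% Wilson interval 16 to 29.3) and weakened in 0. Over all shared regions, 1749 (2.24%) were strengthened and 3398 (4.35%) weakened. Such intervals describe counting over regions and say nothing of how cultures or libraries vary. The 2 spacings gave nearly the same share, with 14 of 65 regions strengthened for a spacer of 5 (21.5%) and 18 of 81 for a spacer of 2 (22.2%). Their median shifts were 0.37 and 0.30, against 0 for all shared regions. Regions with a repeat were also found more among the gained, 97 of 15829 (0.613%), than among the lost, 64 of 36725 (0.174%). Repeats with a spacer of 1, which RXR pairs bind, were in 52 shared regions, of which 5 were strengthened and 1 weakened.

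The single compounds gave different counts for the spacings, in comparisons that share the DMSO list with this one. Of regions with a spacer of 5, 13 of 62 with a value were at least 2-fold up with ATRA alone and 1 of 55 with Corin alone. For a spacer of 2 these were 17 of 69 with ATRA and 11 of 70 with Corin. Over all shared regions the shares at least 2-fold up were 7.1% with ATRA and 1.7% with Corin. No region with a spacer of 2 was 2-fold down with either compound. Whether the compounds differ by spacing could not be tested, since each has 1 list.

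**Figure D1:**
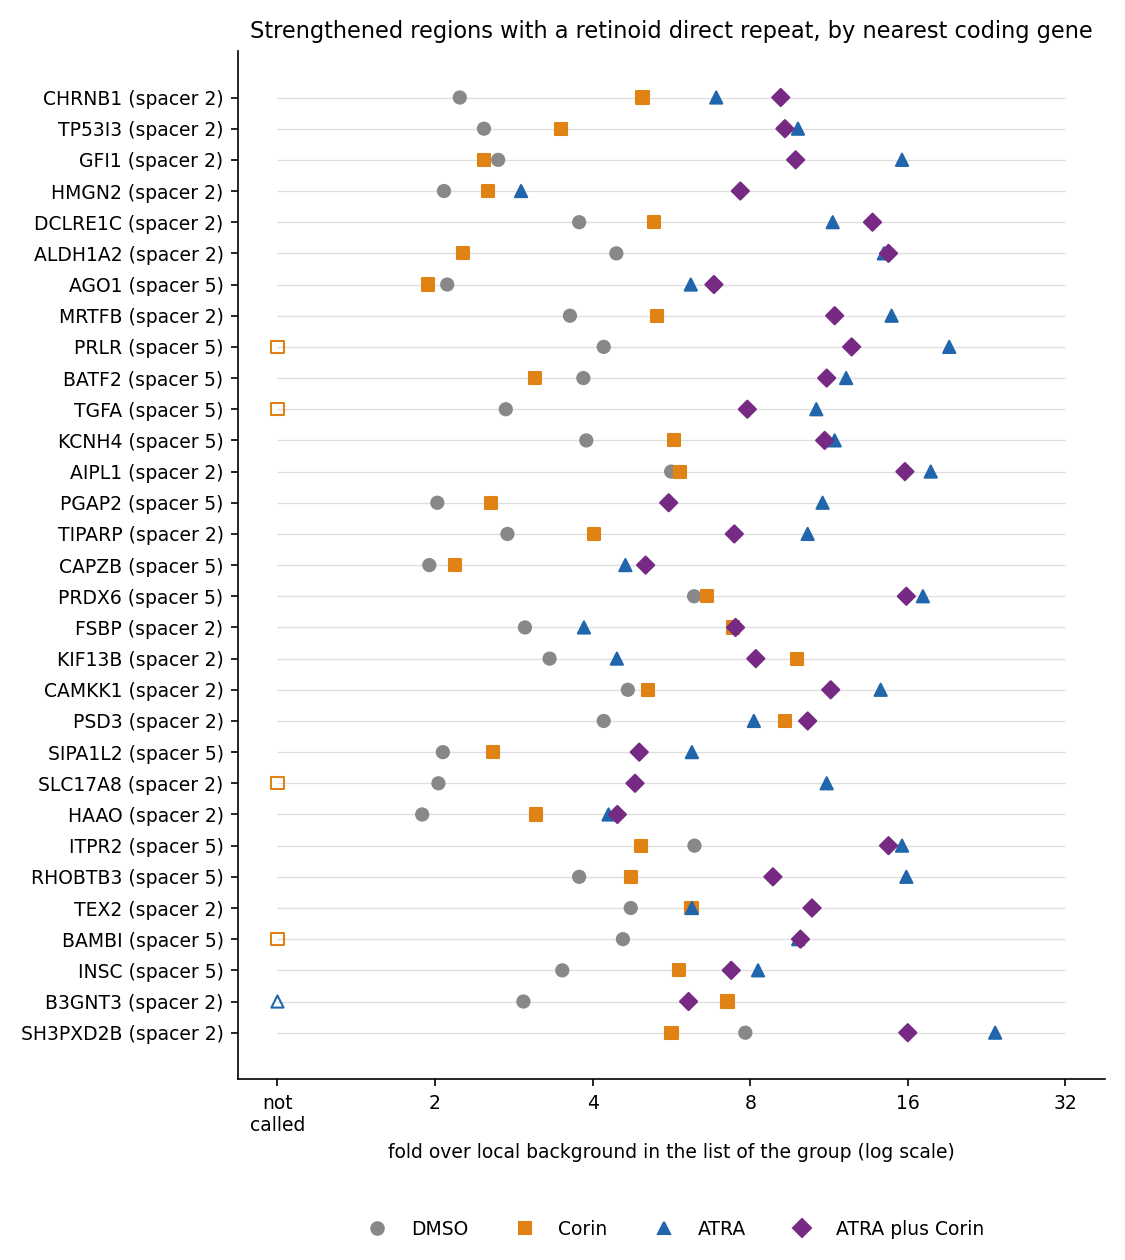
Fold over local background (log scale) in each of the 4 lists for 31 of the 32 strengthened regions with a retinoid direct repeat, named by the nearest coding gene and ordered by shift; open symbols at the left mark a list without a peak. The combination lies to the right of DMSO by construction, and ATRA alone lies near it in most rows, while Corin alone lies near it in few, such as KIF13B and PSD3.

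Some of these sites, chosen after their values were seen, had a gene of retinoid metabolism as the nearest coding gene, at 3.27 to 194 kb. Whether such genes are more frequent here than over all regions was not tested. ALDH1A2, which makes retinoic acid from retinaldehyde, had an intronic region 3.27 kb upstream of its nearest coding start (chr15:58281965-58282791). It had a fold of 14.7 in the combination, 14.4 with ATRA, 2.26 with Corin and 4.44 with DMSO, so that the ATRA-containing groups were high and Corin alone lay under DMSO. CYP26A1, which degrades retinoic acid, had an intergenic gained region 76.6 kb downstream of its start (chr10:93150172-93151506). Its fold was 11.4 in the combination and 12.3 with ATRA, and it had no peak with Corin or DMSO. CYP26B1, an enzyme of the same family, was the nearest coding gene, at 194 kb, of an intergenic region with a fold of 4.9 in the combination and 4.86 with ATRA and no peak in the other lists.

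GFI1, whose product brings CoREST to DNA, had an intergenic region with a spacer 2 repeat 33.2 kb downstream of its start (chr1:92446732-92447647). The fold was 9.77 in the combination, 15.6 with ATRA, 2.48 with Corin and 2.64 with DMSO, a shift of 1.86. It was thus high where ATRA was present. The main promoter region of GFI1 stayed level, at 6.29 and 6.3 in the combination and DMSO. PRLR, the prolactin receptor, had an intergenic region 51.3 kb upstream with folds of 12.5 in the combination, 19.2 with ATRA and 4.2 with DMSO, and no peak with Corin. TGFA, a ligand of the EGF receptor, had an intronic region with folds of 7.9, 10.7 and 2.73 in the same 3 lists and none with Corin. BATF2, an AP-1 family factor of the interferon response, was the only one of the 32 at a promoter. Its region 63 bp upstream of a start held a spacer 5 repeat and had folds of 11.2 in the combination, 12.2 with ATRA, 3.11 with Corin and 3.84 with DMSO.

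One form of the spacer 2 repeat recurred. It was in 76 of the 189 regions with a spacer of 2, of 82 forms seen, and the next form was in 6. No repeat annotation was used here. Of the 32 shared regions with this form 6 were strengthened (18.8%, 8.89 to 35.3) and 0 weakened, and it was in 19 gained and 25 lost regions. With Corin alone 6 of 26 were 2-fold up, against 5 of 44 for the other spacer 2 repeats, so that this form made up 6 of the 11 given above. Other spacer 2 repeats were strengthened in 12 of 49 shared regions (24.5%, 14.6 to 38.1) and were in 40 gained and 24 lost regions. XRCC2, a DNA repair gene, had the gained region with a repeat that reached the highest fold, 14.1 kb upstream (chr7:152689856-152690542), with folds of 12.9 in the combination, 10.9 with ATRA and 3.82 with Corin. The part that reads mapping to several places have in these values was not tested.

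Among the receptors, the promoter region of RARB (chr3:25427136-25428831), whose start is a textbook target of retinoic acid, had a fold of 11.8 in the combination, 12.3 with ATRA, 3.54 with Corin and 6.23 with DMSO. The shift was 0.89, short of 2-fold. A search of the whole region found a spacer 5 repeat at chr3:25428210-25428226 on the plus strand.
RARB: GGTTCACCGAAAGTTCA
Of the 14 genes of a retinoic acid response list with a promoter region, only DHRS3, a retinaldehyde reductase, also held such a repeat in it, on the minus strand at chr1:12595982-12595998.
DHRS3: GGTTCAGCCACAGGTCA
The DHRS3 region stayed near its level, with folds of 13.4 in the combination, 12.5 with ATRA, 12.7 with Corin and 10.9 with DMSO. Of 35 promoter regions of a myeloid differentiation list, 0 held a repeat of either spacing.

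Other regions in or near RARB went the other way. One (chr3:24678097-24678908) lay 9.29 kb upstream of a RARB start, in an intron of a non-coding gene, and held an AP-1 motif. It had folds of 4.98 in the combination, 7.92 with ATRA, 16.8 with Corin and 16.3 with DMSO. It was the only strong shared region past 2-fold near a gene of the retinoic acid response list, where strong means within the strongest 20% of its list. An intronic region of RARB itself had folds of 3.88, 10.8, 4.88 and 9.42 in the combination, ATRA, Corin and DMSO. RARB also had 16 lost and 3 gained regions within 10 kb of its body. RARA had 1 strengthened region, at an exon of the neighbouring gene and 5.97 kb from the nearest coding start, with folds of 7.36 in the combination and 3.14 in DMSO, and 5 gained and 2 lost regions. RARG and RXRA had no shared region past 2-fold, and their main promoter regions had shifts of 0.01 and 0.30. RXRA had 1 gained and 2 lost regions, and RARG had 1 lost region.

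Of the 22 genes of the retinoic acid response list, 21 had regions within 10 kb, of which 14 had a gained one and 18 a lost one. Of 17894 coding genes with regions, 39.7% had a gained region and 66.1% a lost one. The list held 39 gained and 52 lost regions, beside 10411 gained and 24769 lost over all coding genes. DHRS3 had 6 gained and 2 lost, TGM2, a transglutaminase induced by retinoids, 5 and 1, ASB2 4 and 3, STRA6 4 and 2, and CRABP2, a retinoic acid binding protein, 3 and 4. RARB, with 3 and 16, and ZBTB16, with 1 and 9, had more losses. These counts keep regions with a high local background, which were left out when the strongest regions were named. At DHRS3 a gained region had a background of 189 in the combination and a lost one 75.3 in DMSO. Both lay within 1 kb of a start of the gene. A gained region of TGM2 had a background of 88.3 in the combination. At STRA6 a gained and a lost region lay in introns of CCDC33, which was their nearest coding gene. Strengthened regions were near 1 gene of the list and weakened ones near 3 (RARB, HIC1 and ZBTB16), against 7.4% and 11.1% of all coding genes. The region near HIC1, at a start of SMG6, had a high local background, 51.8 in the combination and 17 in DMSO. Its pileup was 229 and 183, so that the fold fell while the pileup did not. The regions near ZBTB16, the PLZF repressor, went in both directions. Its main promoter region had folds of 17 in the combination, 19.5 with ATRA, 14.4 with Corin and 9.93 with DMSO, short of 2-fold. An intronic region had 5.02 in the combination and 11 in DMSO, and 9 regions of the gene were lost.

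Over all 78204 shared regions the SD of the shift was 0.51, the range −3.55 to 3.30, and 79.6% of the regions lay within 1.5-fold. Large shifts were found at intermediate levels. Among 10 classes of equal size by level, the SD was 0.69 in the class with a median of 5.48-fold and 0.19 in the highest class, where 3 regions were strengthened and 1 weakened. Promoters had smaller shares past 2-fold than introns. Of 19576 shared regions at promoters, within 1 kb of an annotated start, 1.04% were strengthened and 1.72% weakened, against 2.83% and 5.3% of 34314 in introns. Promoters were 52.5% of the highest class by level and 14.6% of the class at 5.48-fold. The part that level has in their smaller shares was not tested. Promoters made up 25% of all shared regions, 11.7% (10.2 to 13.3) of the strengthened and 9.89% (8.93 to 10.9) of the weakened. Strengthened regions were poorer in G and C, at 46%, than weakened ones, at 49.1%, and all shared ones, at 52.1%.

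**Figure D2:**
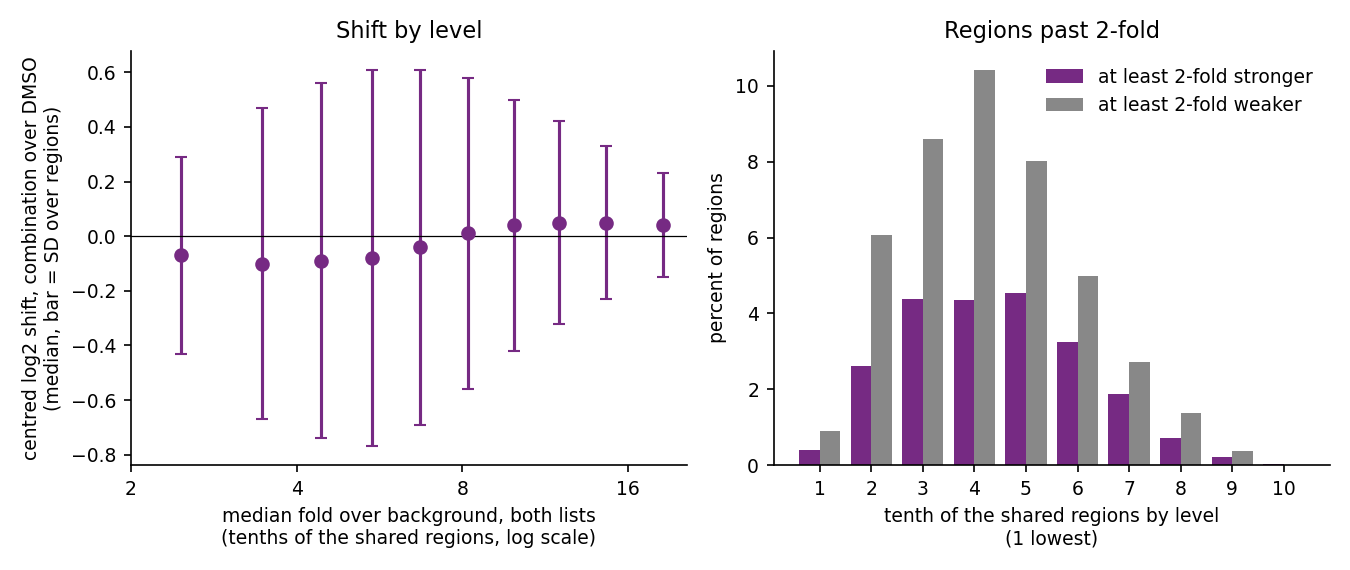
Left, the median shift (log2, combination over DMSO) of shared regions in 10 classes of equal size by level, against the median fold over background on a log scale, with bars for the SD over regions; right, the percent of each class that was at least 2-fold stronger or weaker. The medians stay between −0.10 and 0.05, and the share of weakened regions is highest, 10.4%, in the class with a median of 5.48-fold.

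The strengthened regions had a median fold of 9.46 in the combination and 3.7 in DMSO. In the single-compound lists their medians were 11.6 with ATRA and 4.88 with Corin. Of those with a value, 1047 of 1707 (61.3%) were at least 2-fold up with ATRA alone and 282 of 1451 (19.4%) with Corin alone. The weakened regions had medians of 3.48 in the combination, 8.91 in DMSO, 9.09 with ATRA and 5.59 with Corin. Since folds of the ATRA list run high, with a median of 11.4 over all shared regions against 7.6 for DMSO, the centred shift of the weakened regions with ATRA was below 0, at −0.35, and with Corin it was −0.60. At least 2-fold down were 499 of 3216 (15.5%) with ATRA alone and 673 of 3135 (21.5%) with Corin alone. Over all shared regions these shares were 1.92% and 2.57%. All 3 comparisons share the DMSO list, so each DMSO value enters all of them. When the pileup over the most frequent background of the list was used instead of the fold, 3418 regions were strengthened and 6700 weakened, among them 1537 of the 1749 and 3277 of the 3398.

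Among strengthened regions, 151 were in the strongest 20% of the combination list, and the 12 with the largest shift were named after 95 with a high local background had been left out. The largest was an intergenic region 13.7 kb downstream of the coding start of RIIAD1 (chr1:151734915-151735576), with folds of 23.2 in the combination, 26.1 with ATRA, 15.9 with Corin and 2.31 with DMSO. It was 9.84-fold stronger after centring, and DMSO stood alone at the low end. TTC7B, a subunit of the phosphatidylinositol 4-kinase complex, had a region at a start inside the gene (chr14:90658488-90659558) with folds of 22.4, 27, 20.3 and 4.39 in the same order. In both regions either compound alone was also at least 2-fold up.

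In other named regions only the lists with ATRA were high. IL10RA, the receptor chain for interleukin 10, had an intergenic region 26.6 kb upstream (chr11:117959409-117960236) with folds of 21.2 in the combination and 21.8 with ATRA, against 4.95 with Corin and 6.09 with DMSO. SKAP2, an adaptor of Src kinases in myeloid cells, had an intronic region with 19.3 and 23.6 against 6.72 and 5.07. A region in an intron of RAD51B, a gene of homologous recombination, had 14.9 and 12.2 against 3.47 and 3.77. TGFA had a second intronic region, with 17.3 in the combination, 20.4 with ATRA and 3.89 with DMSO and no peak with Corin. Of the 12 named strengthened regions 11 were at least 2-fold up with ATRA alone and 7 with Corin alone. ZNF330, which was nearest at 108 kb to a region with folds of 16.8, 12.1, 15.4 and 5.22 in the combination, ATRA, Corin and DMSO, was the one below 2-fold with ATRA. Others were nearest to EPB41, PALLD, TNC and CFAP126.

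Among weakened regions, 409 were in the strongest 20% of the DMSO list, and 127 were left out of naming. The largest fall was in an exon of a non-coding gene 9.09 kb upstream of ABCC12, a transporter of the ABC family (chr16:48164881-48165579). Its fold was 1.51 in the combination, 22.5 with ATRA, 17.1 with Corin and 17.3 with DMSO, a fall of 11.7-fold after centring that neither compound alone shared. The combination peak was barely called, with a −log10 p of 2.01 where the lowest of its list was 2.00. CLVS1 had an intronic region of the same pattern, with 1.96 in the combination and 14.9, 15.2 and 13.5 in ATRA, Corin and DMSO. HHAT, which attaches palmitate to Hedgehog proteins, had an intronic region (chr1:210446434-210447054) with 2.14 in the combination, 6.92 with ATRA, 18.3 with Corin and 19.2 with DMSO. OLA1, an ATPase, had one with 1.71, 6.24, 15.2 and 14.8. At HHAT and OLA1 ATRA alone was lower than DMSO and Corin alone was not. Their combination peaks were also weak, with a −log10 p of 4.63 and 2.8.

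The opposite order was seen at DTD1, a tRNA editing enzyme, where an intronic region (chr20:18650061-18650790) had folds of 3.01 in the combination, 21.3 with ATRA, 4.1 with Corin and 17.4 with DMSO. RTL1 was the nearest gene, at 278 kb, to a region with 2.74, 19.8, 4.95 and 16.5. At LNPK, a gene of the endoplasmic reticulum, 2 intronic regions of a non-coding gene 304 and 197 kb downstream had folds of 2.88 and 2.56 in the combination and 20.8 and 17.2 in DMSO. Both single compounds lay between these values at both regions. Of the 12 named weakened regions 6 were at least 2-fold down with ATRA alone and 5 with Corin alone, and none was at a promoter. The others were nearest to DNM3, IL7R, RIN2 and FILIP1. At IL7R, which encodes the interleukin 7 receptor, the folds were 2.41 in the combination, 6.13 with ATRA, 13.8 with Corin and 15.7 with DMSO, and at FILIP1 they were 3.55, 17.2, 7.29 and 19.5.

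**Figure D3:**
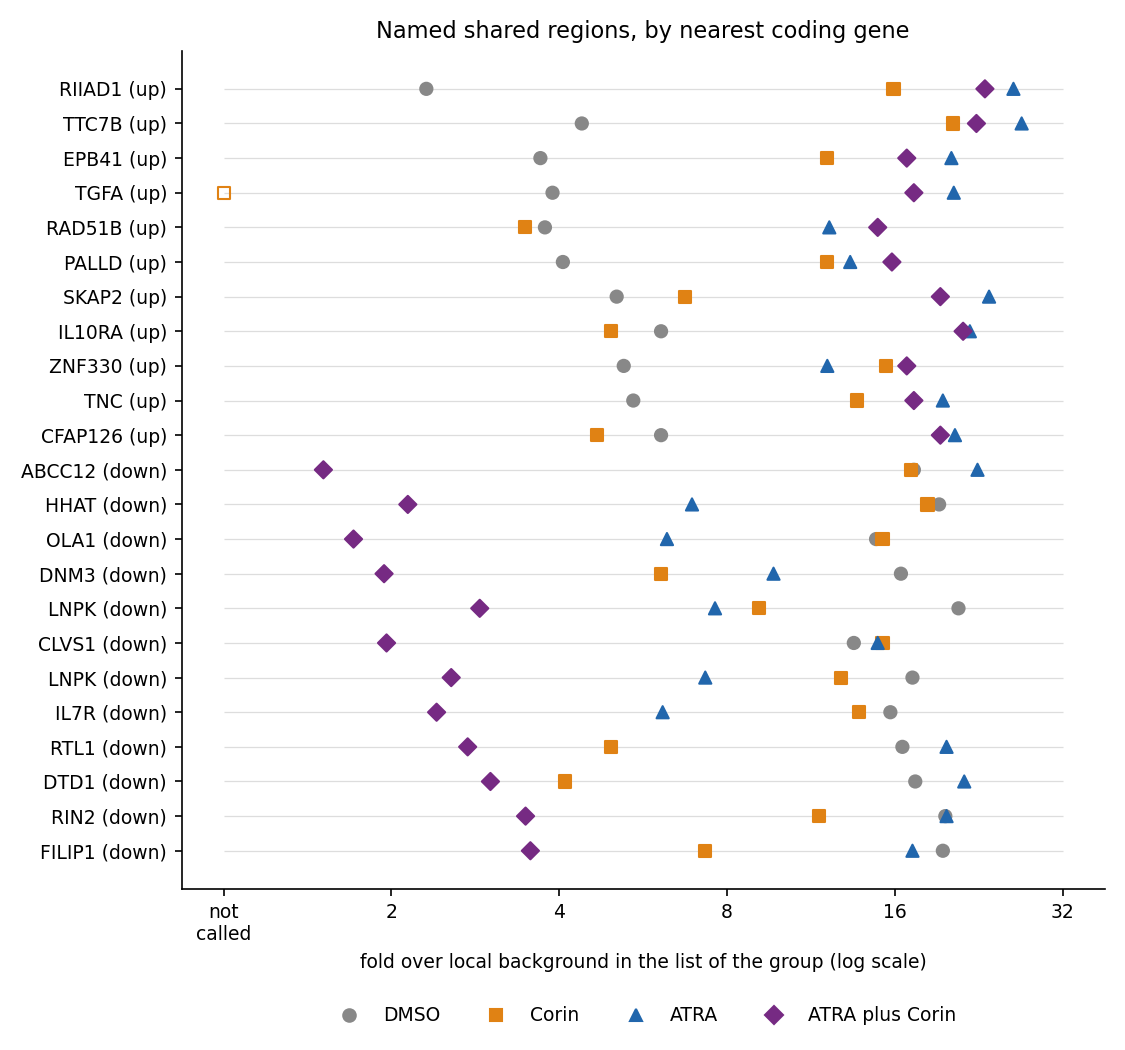
Fold over local background (log scale) in each of the 4 lists for 11 of the 12 named strengthened (up) and the 12 named weakened (down) shared regions, labelled by the nearest coding gene; an open symbol at the left marks a list without a peak. DMSO is low in the upper 11 rows and high in the lower 12 by construction, while ATRA and Corin alone lie at either end or between.

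Regions found in only 1 of the 2 lists were weak, with median folds of 2.56 for the gained and 2.72 for the lost. Of gained regions 96.7% and of lost ones 93.1% ranked below the median score of their list, and 5 and 20 were in the strongest 20%. The lists were of unequal length. With both cut to the same number of the strongest regions, 20129 regions were gained and 19705 lost. Lists of equal length give nearly equal counts by construction, so whether losses exceed gains cannot be read from this. Of the gained regions 43.8% had a peak with ATRA alone and 26.2% with Corin alone. The 10 gained regions with the highest score, after 14 with a high local background had been left out, all had a peak in the ATRA list, with folds of 5.83 to 21.9, and 7 had one in the Corin list, with 2.64 to 6.18. DLD, a subunit of the pyruvate dehydrogenase complex, had an intronic one (chr7:107914822-107915370) with 19.5 in the combination and 21.9 with ATRA and no peak with Corin. TMED2, a cargo receptor of the secretory pathway, had one 24.9 kb upstream with 13.7, 5.83 and 5.93 in the combination, ATRA and Corin, the only one of the 10 with a GFI1 motif. The others were nearest to SAE1, USP3, SLC9A8, ZNF557, PTDSS1, ADGRL2, TARS1 and GADD45G.

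Lost regions with the highest scores were mostly still called in the single-compound lists. Of the 10 named, with 5 left out in the same way, 8 had a peak with ATRA alone and 10 with Corin alone. PLCB1, a phospholipase of G-protein signalling, lost a region 600 bp from a start inside the gene (chr20:8764245-8765065), with folds of 17.1 in DMSO, 9.01 with ATRA and 4.24 with Corin. DDX60L, an interferon-induced helicase relative, lost an intronic one with 20.8, 12.8 and 14.1 in the same lists. LAMA3, a laminin chain, lost one with 19.5, 15.8 and 7.78. FICD was the nearest coding gene, at 36.5 kb, to a lost region with 16.2, 17.5 and 7.64. COBL and LZTS1 had regions that were high in DMSO and Corin, with 19.1 and 23.7 at COBL and 16.3 and 15.5 at LZTS1, and had no peak in either list with ATRA. The remaining ones were nearest to ADAMTSL1, SIK3, GDF6 and SP4.

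Motifs of other factors were compared between strengthened and weakened regions in the same 200-bp windows on both strands. These were centred on combination summits for strengthened and on DMSO summits for weakened regions. PU.1, the master regulator of myeloid cells, was searched as GAGGAAGT and was in 259 strengthened regions (14.8%, 13.2 to 16.6), 194 weakened ones (5.71%, 4.98 to 6.54) and 7.42% of all shared regions. Its regions had a median shift of 0.09 in the combination, 0.28 with ATRA and −0.10 with Corin. With ATRA alone 846 of 5706 of them were 2-fold up and 42 down, and with Corin alone 64 of 5028 were up and 232 down. Over all shared regions 7.1% were up and 1.92% down with ATRA, and 1.7% up and 2.57% down with Corin. The HOX/MEIS motif, TGATTTAC or TGATTTAT, was in 3.54% (2.78 to 4.52) of strengthened, 1.35% (1.02 to 1.8) of weakened and 1.19% of all shared regions. The MEF2 motif was in 4.12% (3.28 to 5.15) of strengthened, 1.65% (1.27 to 2.13) of weakened and 1.95% of all shared regions. This difference of 2.47 points was 0.75 (−0.32 to 1.81) and 0.84 (−0.81 to 2.49) in the middle and highest of 3 classes by GC content and 0.28 (−2.28 to 2.83) in strong regions. That of HOX/MEIS, 2.19 points, was 0.27 (−0.94 to 1.48) in the highest GC class. C/EBP and RUNX motifs were in almost equal shares of both sets, with 19.6% and 19.5% for TTGCNNAA and 7.66% and 8.48% for TGTGGTTA or TGTGGTTT. The REST motif, of interest because REST is a partner of CoREST, was rare, with 37 shared, 5 gained and 48 lost regions, of which 1 was strengthened and 1 weakened. Motifs of promoters seldom moved, with 1 strengthened and 6 weakened of 1675 shared regions for NRF1, a regulator of mitochondrial genes. The part that level has in this was not tested. The letters of a motif describe the sequence, and no binding was measured.

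The GFI1 motif, AATCACAGC or AATCACTGC, was in 29 strengthened regions (1.66%, 1.16 to 2.37), 6 weakened ones (0.177%, 0.0809 to 0.385) and 0.474% of all shared regions. The difference of 1.48 points was 0.46 in windows of 100 bp and 0.78 in sets at 1.5-fold, and its interval included 0 in strong regions (−0.83 to 3.82) and in the highest GC class (−0.21 to 3.68). Of the 371 shared regions that held it, 7.82% (5.5 to 11) were strengthened. Their median shift was 0.15 in the combination, 0.16 with Corin alone and 0.03 with ATRA alone, with 22 of 350 regions 2-fold up under Corin and 20 of 353 under ATRA, against 1.7% and 7.1% of all shared regions. Examples with the motif in capitals on the plus strand, where GCTGTGATT and GCAGTGATT are its forms read from the other strand, are these, chosen after their values were seen.
SLC40A1, chr2:189559614-189559672: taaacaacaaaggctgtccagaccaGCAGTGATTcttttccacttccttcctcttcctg
PDPN, chr1:13593888-13593946: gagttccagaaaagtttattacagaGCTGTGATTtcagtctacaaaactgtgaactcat
EHD3, chr2:31297975-31298033: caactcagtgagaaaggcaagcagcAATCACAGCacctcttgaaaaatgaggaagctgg
KCNK17, chr6:39280637-39280695: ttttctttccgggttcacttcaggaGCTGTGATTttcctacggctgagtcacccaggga
TMED2, chr12:123559642-123559700: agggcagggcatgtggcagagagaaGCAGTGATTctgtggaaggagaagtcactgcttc

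These regions differed in their values. The SLC40A1 region, 21.1 kb downstream of the start of this iron exporter gene, had folds of 8.44 in the combination, 3.76 with ATRA, 2.55 with Corin and 2.2 with DMSO, so that it was high with both compounds only. PDPN, which encodes podoplanin, had an intronic region with 14.8, 7.22, 13.7 and 5.52 in the same order, high in both groups with Corin. KCNK17, a potassium channel gene, was 33.8 kb from an intergenic region with 8.02, 3.03, 9.59 and 2.92, again high with Corin. The EHD3 region, 63.9 kb downstream of its start, had 17, 11.3, 14.1 and 5.87 and was low with DMSO only. Other strengthened regions with the motif were high in both groups with ATRA. One in an intron of ELF5, an ETS factor gene, had 12.6 in the combination, 16.4 with ATRA, 4.58 with Corin and 3.86 with DMSO. An intronic region of GNB1, a G-protein subunit gene, had 11.6, 12, 3.56 and 3.84.

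AP-1 motifs went the other way. TGACTCA, or TGAGTCA on the other strand, was in 533 weakened regions (15.7%, 14.5 to 16.9), 151 strengthened ones (8.63%, 7.41 to 10) and 10.4% of all shared regions. Of the 8131 shared regions with the motif, 6.56% were weakened and 1.86% strengthened. Their median shift was −0.05 in the combination, −0.17 with ATRA and 0.24 with Corin. With ATRA alone 568 of 7294 were 2-fold down and 247 up, and with Corin alone 45 of 7890 were down and 589 up. Over all shared regions 1.92% were down and 7.1% up with ATRA, and 2.57% down and 1.7% up with Corin. In the highest of 3 classes by GC content the shares were 11.6% of 173 strengthened and 11.2% of 642 weakened regions, a difference of 0.35 points (−5.01 to 5.70) in which the lower share of strengthened regions was not seen. The motif stood within the windows of these weakened or lost regions, of which KALRN was chosen after its values were seen.
HHAT, chr1:210446557-210446613: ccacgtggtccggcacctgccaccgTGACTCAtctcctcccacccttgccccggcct
OLA1, chr2:174234720-174234776: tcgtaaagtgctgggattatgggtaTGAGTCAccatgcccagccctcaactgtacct
LNPK, chr2:175805680-175805736: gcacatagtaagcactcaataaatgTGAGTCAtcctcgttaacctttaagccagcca
KALRN, chr3:124299217-124299273: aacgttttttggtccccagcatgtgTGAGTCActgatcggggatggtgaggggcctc
COBL, chr7:51123762-51123818: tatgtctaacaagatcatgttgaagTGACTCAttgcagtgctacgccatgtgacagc
The KALRN region, in an intron of this guanine exchange factor gene, had folds of 3.41 in the combination, 3.76 with ATRA, 12.7 with Corin and 16.3 with DMSO. As at HHAT, OLA1 and COBL, it was low in both groups with ATRA and high in the others.

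The motif of CTCF, which bounds chromatin loops, was rare in strengthened regions, with 20 of 1749 (1.14%, 0.741 to 1.76), against 212 weakened ones (6.24%, 5.47 to 7.1) and 6.6% of all shared regions. Limited to strong regions the shares were 1.99% and 2.69%. Some single CTCF sites fell far. The site 18.9 kb upstream of ARHGAP12 (chr10:31947258-31948194), a GTPase-activating protein gene, had folds of 2.02 in the combination, 1.96 with ATRA, 8.91 with Corin and 9.23 with DMSO. An intronic site of MBD5 (chr2:148201114-148201843), which encodes a methyl-CpG-binding domain protein, had 2.08, 9.79, 3.61 and 12.3, with Corin low and ATRA high. The motif is in capitals on the plus strand, and both sites were chosen after their values were seen.
ARHGAP12, chr10:31947777-31947838: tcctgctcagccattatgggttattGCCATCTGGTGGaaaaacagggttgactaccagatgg
MBD5, chr2:148201535-148201596: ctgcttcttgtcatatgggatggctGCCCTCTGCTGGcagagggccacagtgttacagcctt

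**Figure D4:**
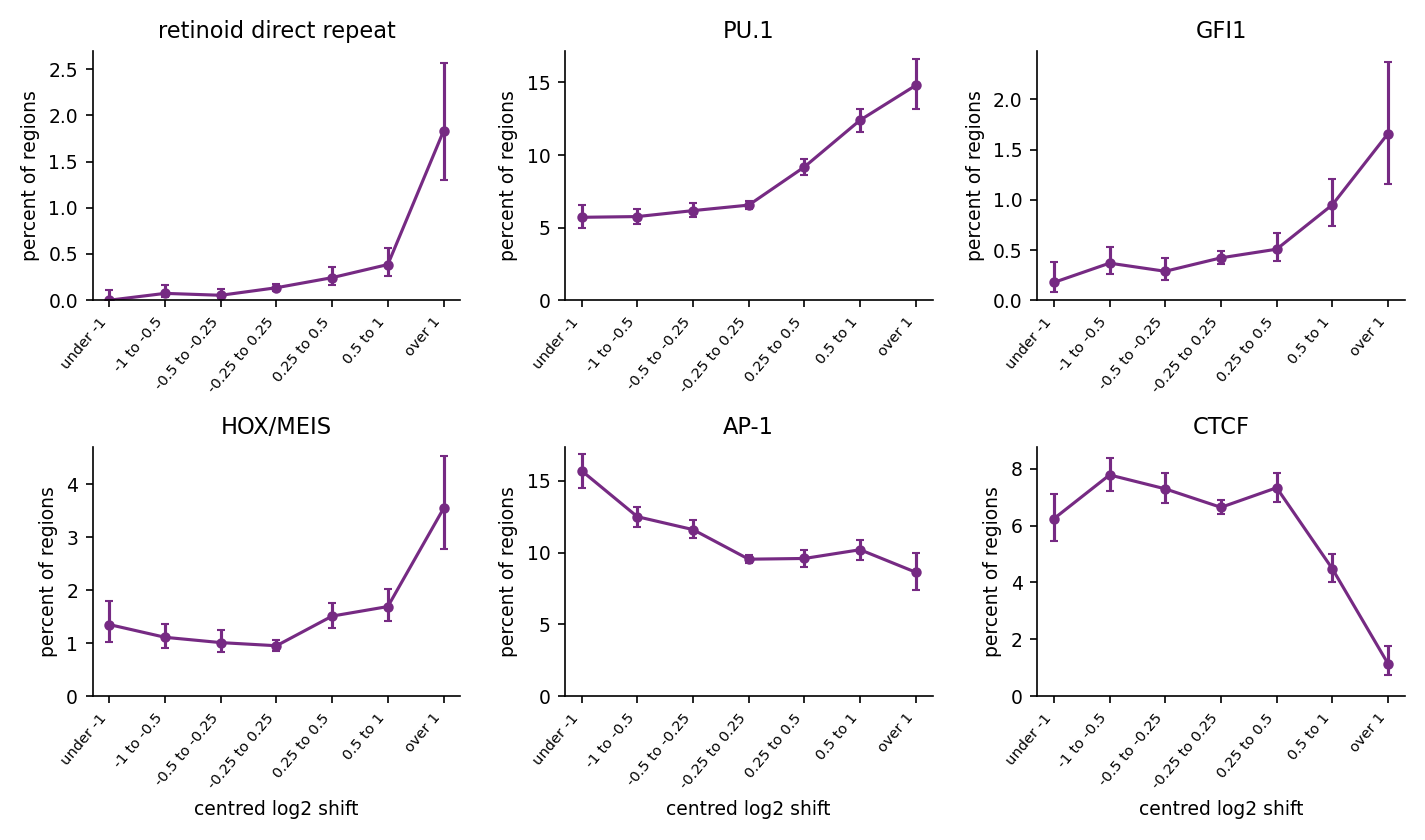
Percent of shared regions with a motif in the 200 bp at the summit, by bins of shift (log2, combination over DMSO), with 95% Wilson intervals, for 6 motifs. The share rises with the shift for the retinoid repeats, from 0 to 1.83%, and for PU.1, from 5.71% to 14.8%, and falls for AP-1, from 15.7% to 8.63%.

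Promoters seldom passed 2-fold, both over all coding genes and in the list of myeloid differentiation. The main promoter region of a gene is here the shared region with the highest score within 1 kb of one of its starts. Over 11001 coding genes with one, 58 (0.527%) were at least 2-fold up and 82 (0.745%) down, and the median shift was 0.05. For 35 of the 46 myeloid genes the median was 0.11 and none passed 2-fold. CD86, a co-stimulatory ligand, came nearest, with 16.3 in the combination, 19.9 with ATRA, 15.5 with Corin and 8.12 with DMSO. CD163, the haemoglobin scavenger receptor of macrophages, followed with 10.6, 10.1, 8.41 and 5.43. ITGAM, which encodes CD11b, was level, with 21.9, 23.9, 19.9 and 20.8. Of the 45 myeloid genes with regions 21 had a gained one and 20 a lost one, against 39.7% and 66.1% of all coding genes, and strengthened regions were near CD163 and SPI1, the gene of PU.1. The one at an exon of CD163 had folds of 15.4 in the combination, 4.74 with ATRA, 17.1 with Corin and 5.51 with DMSO, high in both groups with Corin. CD86 had a weakened intronic region, with 3.55, 6.62, 5.59 and 9.06. Of the main promoter regions of the 46 myeloid genes, 23 of 35 had a shift over 0, beside 6648 of 11001 coding genes. In the shorter list of 17 myeloid markers, most of which are also on the longer one, these were 13 of 14, with a median of 0.24.

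**Figure D5:**
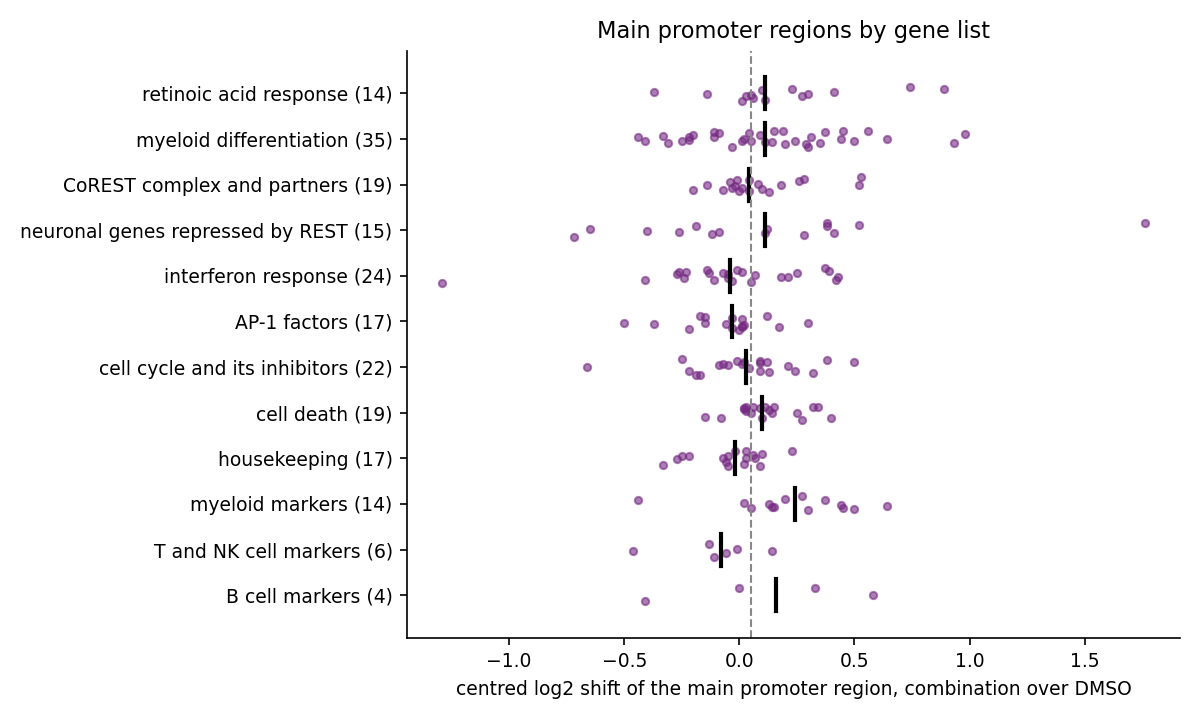
Shift (log2, combination over DMSO) of the main promoter region of each gene, by gene list, with the number of promoters in parentheses, the median of the list as a black bar and the median of all coding genes as a dashed line. Medians of the lists drawn lie between −0.08 and 0.24, and NPAS4 at 1.76 and IFI27 at −1.29 stand apart.

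Genes of the CoREST complex and its partners had no main promoter past 2-fold, with a median shift of 0.04 over 19 regions. Over all coding genes 0.527% of main promoters were up and 0.745% down. A weakened region stood near 3 of 21 genes, against 11.1% of all coding genes, and a strengthened one near 0. Within 50 kb these counts were 7 and 4, but the share of all coding genes at that distance is not given, so they cannot be compared. For KDM1A it was a second promoter region (chr1:23078947-23079631), with folds of 3.62 in the combination, 17.6 with ATRA, 3.62 with Corin and 9.11 with DMSO, low in both groups with Corin. The main promoter of KDM1A had 18.7, 19.8, 21.3 and 20.2. For HDAC2 it was at the start of an antisense gene, with 3.95, 9.09, 5.94 and 10.4. Among 31 neuronal genes that REST, a partner of CoREST, is known to repress, 30 had regions, of which 13 had a gained one and 25 a lost one, against 39.7% and 66.1% of all coding genes. NPAS4, a neuronal activity factor, was the only one with a promoter past 2-fold. Its region (chr11:66421558-66421941), with a REST motif, had 6.69 in the combination, 5.24 with ATRA, 2.45 with Corin and 1.94 with DMSO.

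Of 27 interferon response genes with regions, 2 had a strengthened one and 4 a weakened one, against 7.4% and 11.1% of all coding genes. IFI27 had the only main promoter of 24 past 2-fold, with folds of 5.39 in the combination, 11 with ATRA, 6.51 with Corin and 12.9 with DMSO. RIGI, the sensor of viral RNA, had a weakened region at another start of the gene, with 3.55, 10.7, 7.92 and 12.1. A region between MX1 and MX2 held an IRF motif and had 1.94, 6.62, 3.11 and 5.11. IFIT3 had a strengthened intronic region, with 9.98 in the combination, 20.2 with ATRA and 2.46 with DMSO, and no peak with Corin. CGAS, the sensor of cytosolic DNA, had one with 11.5, 4.05, 10.9 and 4.86, high in both groups with Corin. Of 18 AP-1 factor genes 2 had a strengthened region, ATF7 with a shift of 1.21 and BATF2 with 1.52, and 1 a weakened one, and their main promoters had a median shift of −0.03. BACH1, a repressor of that family, had 4 weakened regions with shifts of −1.33 to −1.05.

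Of 27 cell cycle genes 4 had a strengthened region and 3 a weakened one, and of 20 cell death genes 4 and 2, beside the same 7.4% and 11.1%. No main promoter of either list passed 2-fold, beside 0.527% up and 0.745% down over all coding genes. The median promoter shifts were 0.03 and 0.10. CCND3, a D-type cyclin, had an intronic region with folds of 10.7 in the combination, 8.3 with ATRA, 3.63 with Corin and 2.8 with DMSO. CDKN1A, the p21 inhibitor, had a weakened region at an exon with 2.71, 10.5, 4.02 and 6.42. Its local background was high, 81.6 in the combination and 51.2 in DMSO, with pileups of 223 and 334. The fall in fold thus holds a rise of the background. XIAP, a caspase inhibitor, had an intronic region with 15, 10.3, 13.2 and 3.77, low with DMSO only. BCL2L1, the gene of the survival factor BCL-XL, had intronic regions in both directions. The weakened one, in the strongest 20% of the DMSO list, had 3.75 in the combination, 5.06 with ATRA, 7.98 with Corin and 11.7 with DMSO. The strengthened one had 7.04, 12.8, 4.17 and 3.2. Both had a high local background. In the combination and DMSO the pileups were 97 and 460 at the weakened one and 174 and 105 at the strengthened one. The housekeeping list had strengthened regions near 2 of 18 genes and weakened ones near 1, with a median promoter shift of −0.02. Of B cell genes EBF1 had 3 weakened intronic regions, the largest with a shift of −2.00, and a main promoter with a shift of −0.00.

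Promoters outside these lists also passed 2-fold, and the examples were chosen after their values were seen. PEAK1, a pseudokinase of the cytoskeleton, had folds of 12.6 in the combination and 13.9 with ATRA against 2.19 with Corin and 2.17 with DMSO, a shift of 2.51 at one of its starts. CASP5, an inflammatory caspase, had 9.11, 10.9, 3.18 and 2.68. PLCB2, a phospholipase of leukocytes, had 6.39, 4.07 and 1.58 in the combination, ATRA and DMSO and no peak with Corin. In the other direction ECHDC2 had 3.28 in the combination, 13.1 with ATRA, 5.33 with Corin and 12.5 with DMSO. CD300E, a receptor of monocytes, had 3.01, 4.55, 10.1 and 10, low in both groups with ATRA. MMP1, the interstitial collagenase, had 3.21, 3.95, 7.22 and 8.99 in the same pattern. F13A1, the A subunit of coagulation factor XIII, had 4.55, 16.5, 3.75 and 11.9, low in both groups with Corin.

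When each region was given to the nearest coding start, 9181 of 17214 genes had more lost and weakened than gained and strengthened regions and 2708 had fewer. These counts rest on lists of unequal length, and the part that length has in them was not tested. Cutting the lists to equal length cannot decide this, for the reason given above. The genes with the largest excess of gains were DLGAP2, with 37 gained and 10 lost of 60 regions, CDH4, with 25 and 1 of 35, and SMOC2, with 21 and 0 of 25. Others with a large excess were DEFB115, GADD45G, PALLD, CHST15, FOXA2 and PAX1. The largest excess of losses was at DAOA, with 44 gained and 89 lost of 208 regions, TBC1D5, with 1 and 39 of 67, and SLC39A10, with 10 and 46 of 101. SATB1, a chromatin organizer of lymphoid cells, had 4 and 37 of 69, and CITED2, a co-activator regulator, 6 and 36 of 95. The remaining ones were TNS3, ARID1B, GSDMC, MYCBP2 and KLHL29.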

How the data were processed

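The authors' deposited files were 1 peak list per group, each combining 2 samples, in narrowPeak form. The deposited fold is the ratio of peak to local background. The deposited p-value and q-value are given as −log10, and the summit offset in bp. Per the submitters' processing notes, cutadapt, Bowtie2, SAMtools, Picard and MACS2 were used with hg38. Their settings are not given in the sources used here. The scores are the authors' and serve only to describe, rank or filter regions. Groups follow the labels.

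Peaks on chromosomes 1 to 22, X and Y were merged with pandas 2.3.3, and overlaps were checked with bedtools 2.31.1. Sequence is from hg38 and annotation from GENCODE release 44. Pileup and background were solved from p and fold, with a whole pileup within 0.05 for 99.96% of combination and 99.97% of DMSO peaks. A region took the place of its summit. Shares carry 95% Wilson intervals. The merging and shift steps were tested on simulated data. No test of a difference was possible with 1 pooled list per group, and the labels do not say whether the 2 samples were separate cultures.

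Members, the 14 gene lists and the 22 motifs were chosen with earlier results of these data known. Named were the 10 gained and 10 lost regions with the highest −log10 p, the 12 largest shifts per direction among strong regions, leaving out backgrounds over 2.5 times the most frequent one and contradicting scores, the 10 genes with the largest net count per direction, list genes with a strong changed region, and list promoters past 2-fold. Other names were chosen after their values were seen. Some genes and sequences that these rules name are not reported here. Alternatives covered list limits, overlap, merging, centring, thresholds, windows, GC classes and gene distance.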

Additional observations from a re-analysis of the deposited data

How the results depend on the processing

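No paired analysis was possible because each group has a single list in which the 2 samples are combined, and for the same reason no sample could be left out in turn. Of the counts of gained, lost and shared regions under limits of 5 on −log10 p or q, merging within 150 bp, an overlap of 50% and the lowest −log10 p of the DMSO list as a common limit (added after seeing the data), none moved by over 1.5 times. All peaks lay on the 24 chromosomes used, so taking all sequences changed nothing. Lists of equal length gave 19705 lost regions. Strengthened and weakened regions numbered 6461 and 9459 at 1.5-fold, 247 and 659 at 3-fold, and 3418 and 6700 with the pileup over the list background. Centring, quantile normalisation, the peak or summit used, high backgrounds and stricter lists moved them by less than 1.5 times, and weakened regions outnumbered strengthened ones each time. With a promoter limit of 2.5 kb the promoter shares were 22.9% of gained, 24% of lost, 22.9% of strengthened and 18.5% of weakened regions, and with coding transcripts only 4.42%, 4.72%, 3.95% and 2.88%.

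The difference between strengthened and weakened regions in the share with a retinoid repeat, 1.83 points, was 4.05 in the highest of 3 GC classes, 3.97 in strong regions, 0.69 in sets at 1.5-fold and 0.97 in windows of 100 bp. That of PU.1, 9.10 points, was 4.69 in the highest GC class (95% interval −0.07 to 9.44) and 6.30 in strong regions. That of AP-1, −7.05 points, was −9.05 in the lowest GC class, 0.35 (−5.01 to 5.70) in the highest one, −4.12 in sets at 1.5-fold, −10.72 in strong regions and −4.65 in windows of 100 bp. In strong regions the differences of GATA and IRF motifs, 3.78 and 2.30 points, were −3.09 (−7.78 to 1.60) and −0.70 (−3.43 to 2.02). Outside promoters, an alternative added after seeing the data, the 3 differences were 2.01, 8.94 and −7.43. The cause was not tested. Of weakened regions, 0 held a retinoid repeat in the main setting, 0.118% in windows of 400 bp and 0.0634% in sets at 1.5-fold.

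Retinoic acid response genes with a strengthened region numbered 5 within 50 kb, 3 by nearest coding start and 6 at 1.5-fold, and those with a weakened one 5 within 50 kb and 10 at 1.5-fold. For myeloid genes the counts within 50 kb were 38 for gained, 38 for lost and 6 for strengthened regions; by nearest coding start they were 5 strengthened and 3 weakened, and at 1.5-fold 19 and 11. Shares of all coding genes under these settings are not given, so the counts cannot be read as a result about the lists. The depth of the samples is unknown, and most gained and lost regions lie near the calling limit of their list.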
